A study of Mus musculus with 2 samples.

Results

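The neural microRNA genes of the mouse described here are Mir137, Mir153, Mir219a-1, Mir219a-2, Mir132, Mir212, Mir9-2 and Mir9-3. They were chosen by name for their known work in the nervous system, with earlier results of these data known, and they are 8 of the 1973 microRNA loci in the count tables. MicroRNA sequencing gave their levels in the embryonic facial prominence, the paired swellings of mesenchyme and covering epithelium that form the face. There was 1 group: healthy B6NCrl embryos at day 11.5, both sexes together, with no genotype or treatment named. It held 2 libraries, from a pool of 109 embryos (replicate 1) and a pool of 88 embryos (replicate 2). Each value is therefore an average over many embryos, and with 1 group the comparisons are between loci and between the 2 pools.

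A microRNA gene is transcribed as a long precursor that folds into a hairpin. The hairpin is cut to short mature strands from its 5′ and 3′ arms (5p and 3p), and a mature strand guides silencing proteins to messenger RNAs that pair with its seed, bases 2 to 8. In the nervous system miR-9 is known from neural progenitors, and miR-137 and miR-153 from differentiating and mature neurons. The neighbours miR-132 and miR-212 are induced in neurons by the transcription factor CREB, and miR-219 promotes the maturation of oligodendrocytes, the myelin-forming glia. At this stage the facial prominence borders the forebrain, the eye and the trigeminal ganglion and already receives sensory nerve fibres.

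The mature sequences show which of the members can be told apart in short reads. They are RefSeq sequences on GRCm38.p6, written 5′ to 3′ with the seed in capitals, and all 8 members matched a RefSeq hairpin at the position given by the GENCODE annotation. For each the arm known as the main product is shown, and for miR-9 both arms.
miR-137-3p: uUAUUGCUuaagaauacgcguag
miR-153-3p: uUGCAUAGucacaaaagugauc
miR-219a-5p: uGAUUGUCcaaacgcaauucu
miR-132-3p: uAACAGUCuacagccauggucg
miR-212-3p: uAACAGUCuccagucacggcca
miR-9-5p: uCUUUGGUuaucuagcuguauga
miR-9-3p: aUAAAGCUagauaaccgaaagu
Among these, miR-132-3p and miR-212-3p share the seed AACAGUC. They are identical over the first 9 bases and, compared without gaps, at 17 of 22 positions, so each sequence occurred at only 1 hairpin. By contrast miR-219a-5p is made by both Mir219a-1 and Mir219a-2, and both arms of miR-9 are made by Mir9-1, Mir9-2 and Mir9-3. No other mature sequence in the RefSeq table shared a seed of Mir137 or Mir153.

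Sites were counted as exact matches of a mature sequence within all RefSeq hairpins, on both strands. Every listed arm had 1 site for 4 members, namely Mir137, Mir153, Mir132 and Mir212, while over all 858 loci of the tables with a RefSeq mature sequence this held for 89.5%. With the looser rule that at least 1 arm has 1 site, Mir219a-1 joined them through its own 3p arm. For the numbered copies this matters because the tables keep reads placed at several positions on a line of their own, outside the gene counts. That line held 1081615 reads in replicate 1 and 1388721 in replicate 2, and which loci they came from is not recorded.

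The 8 members were together a small part of the profile. They took 5990 of 1941745 sense counts in replicate 1 (0.308%) and 5933 of 2319881 in replicate 2 (0.256%), or 0.282% ± 0.0373 (SD, n = 2). Mir137, Mir219a-2 and Mir153 supplied 88.7% ± 1.93 of the members' counts. In both libraries 7 members reached at least 10 counts and Mir9-2 did not, whereas 17.8% of all loci reached that minimum. The median level of the 8 members was 139 CPM (counts per 1000000 sense counts at microRNA loci). The median was 5.50 CPM over the 708 loci counted at all and 592 CPM over the 257 loci that averaged 100 counts or more. In such bulk tissue the number of neural cells and the microRNA per cell cannot be told apart, and no neural tissue was compared. Reads at several positions may also be missing from the counts of the numbered copies.

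**Figure D1:**
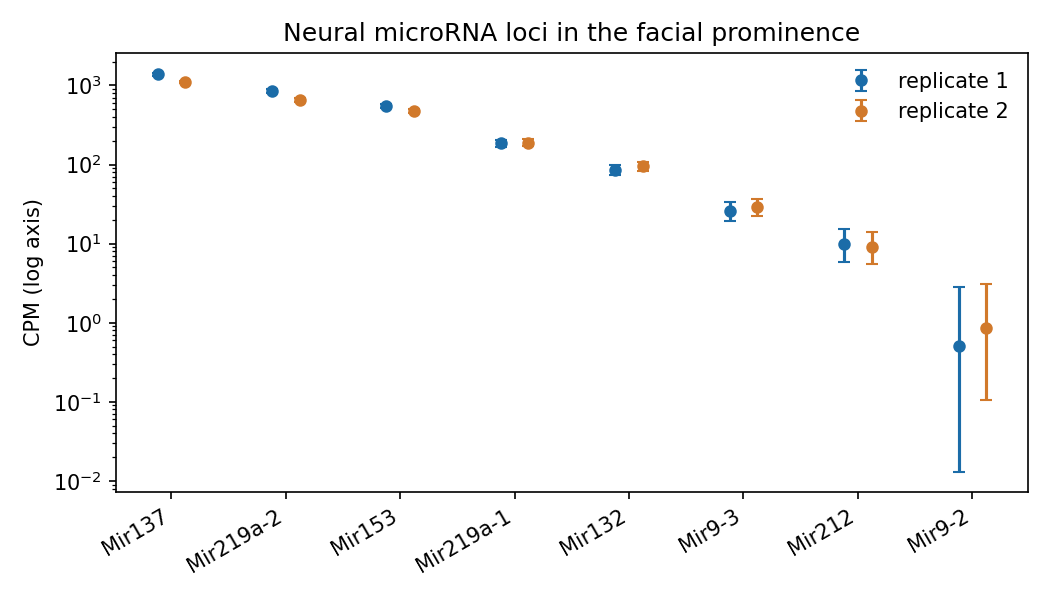
Level of each member in CPM on a log axis, for replicate 1 and replicate 2. Points are single libraries and bars are 95% exact binomial intervals, which cover counting error only; the members run from Mir137 at 1384 and 1109 CPM down to Mir9-2 at 0.515 and 0.862 CPM.

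Among the 8 members Mir137 stood highest. Its hairpin lies on chromosome 3, 118433857 to 118433929, plus strand, in an exon of the non-coding transcript Gm26871. It had 2687 counts in replicate 1 and 2572 in replicate 2, which is 1384 and 1109 CPM, and its mean of 1246 ± 195 CPM (SD, n = 2) placed it at rank 100 of all loci. Its 95% interval was 1332 to 1437 CPM in replicate 1 and 1066 to 1152 CPM in replicate 2, so the 2 pools did not overlap within counting error. The only other microRNA locus annotated in Gm26871, Gm24155, which starts 792 bases further on, had 0 counts in both libraries.

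Mir153 lies in an intron of Ptprn2, a phosphatase-like protein of secretory vesicles in neurons and endocrine cells (chromosome 12, 117250817 to 117250885, plus strand). It had 1060 and 1098 counts, or 546 and 473 CPM, with a mean of 510 ± 51.3 CPM at rank 135. Mir137 exceeded Mir153 by a log2 difference of 1.34 in replicate 1 and 1.23 in replicate 2. These differences were larger than the change of either locus between pools, which was 0.32 for Mir137 and 0.21 for Mir153. No other RefSeq hairpin holds an exact copy of either arm of these loci.

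The pair Mir132 and Mir212 share a transcript as well as a seed, yet they were far apart in level. Both hairpins lie in an intron of the non-coding transcript 1700016P03Rik on the plus strand of chromosome 11, Mir212 at 75173388 to 75173478 and Mir132 at 75173682 to 75173747, separated by 204 bases. Mir132 had 166 counts (85.5 CPM) in replicate 1 and 222 counts (95.7 CPM) in replicate 2, with a mean of 90.6 ± 7.22 CPM. Mir212 had 19 counts (9.79 CPM) and 21 counts (9.05 CPM), with a mean of 9.42 ± 0.518 CPM. Mir132 thus had 8.74 times the counts of Mir212 in replicate 1 (95% counting interval 5.42 to 14.9) and 10.6 times in replicate 2 (6.75 to 17.4). The log2 difference was 3.23 ± 0.20 (SD, n = 2), which was larger than the log2 ratio between pools of Mir132 (-0.16) or Mir212 (0.12).

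The mature miR-219a is encoded at 2 places. Mir219a-2 lies outside any host gene on chromosome 2 (29845631 to 29845727, minus strand), and Mir219a-1 on chromosome 17 (34024983 to 34025092, minus strand) overlaps an exon of the non-coding Gm26940, 303 bases from Ring1. Mir219a-2 had 1647 counts (848 CPM) in replicate 1 and 1511 counts (651 CPM) in replicate 2, a mean of 750 ± 139 CPM at rank 119. Mir219a-1 had 360 counts (185 CPM) and 440 counts (190 CPM), a mean of 188 ± 3.02 CPM at rank 181. Mir219a-2 was the higher copy in both pools, by 4.58 times in replicate 1 (4.08 to 5.14) and 3.43 times in replicate 2 (3.09 to 3.83), a log2 difference of 1.99 ± 0.29. The counts at the 2 copies summed to 937 ± 136 CPM (SD, n = 2). Exact reads of miR-219a-5p match both hairpins, so the amount of miR-219a itself cannot be read from these loci. Whether the gap between the copies reflects their transcription or the placing of reads was not tested.

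The hairpins below, with annotated mature arms in capitals, show how much of each copy is shared. RefSeq lists no 3p arm for Mir219a-2.
Mir219a-1: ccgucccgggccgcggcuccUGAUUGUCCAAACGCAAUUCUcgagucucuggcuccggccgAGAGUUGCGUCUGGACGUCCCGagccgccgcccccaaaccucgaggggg
Mir219a-2: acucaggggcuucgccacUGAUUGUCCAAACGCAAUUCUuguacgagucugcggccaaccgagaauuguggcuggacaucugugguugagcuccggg
Mir9-1: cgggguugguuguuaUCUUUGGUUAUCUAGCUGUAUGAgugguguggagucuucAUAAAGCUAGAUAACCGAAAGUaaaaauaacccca
Mir9-2: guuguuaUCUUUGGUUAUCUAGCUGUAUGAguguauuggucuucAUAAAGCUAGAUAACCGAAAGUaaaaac
Mir9-3: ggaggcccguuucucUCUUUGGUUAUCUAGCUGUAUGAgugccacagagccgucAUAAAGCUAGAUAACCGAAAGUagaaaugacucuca
Around miR-219a-5p the 2 hairpins shared 1 further base before the arm and 0 after it, so the hairpins differ at the base that follows the arm. Mir9-3 differed from both other miR-9 hairpins at the first base before miR-9-5p and at the second base after miR-9-3p (0 and 1 shared bases). After miR-9-5p every pair of miR-9 hairpins shared 3 bases. Mir9-2 and Mir9-1 were alike over a longer stretch: 7 bases before miR-9-5p, where the Mir9-2 hairpin itself begins, 3 after it, and 6 before and 5 after miR-9-3p. The shared run was 33 bases for either arm in that pair, longer than the RNA sizes under 30 that the labels give for these libraries.

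**Figure D2:**
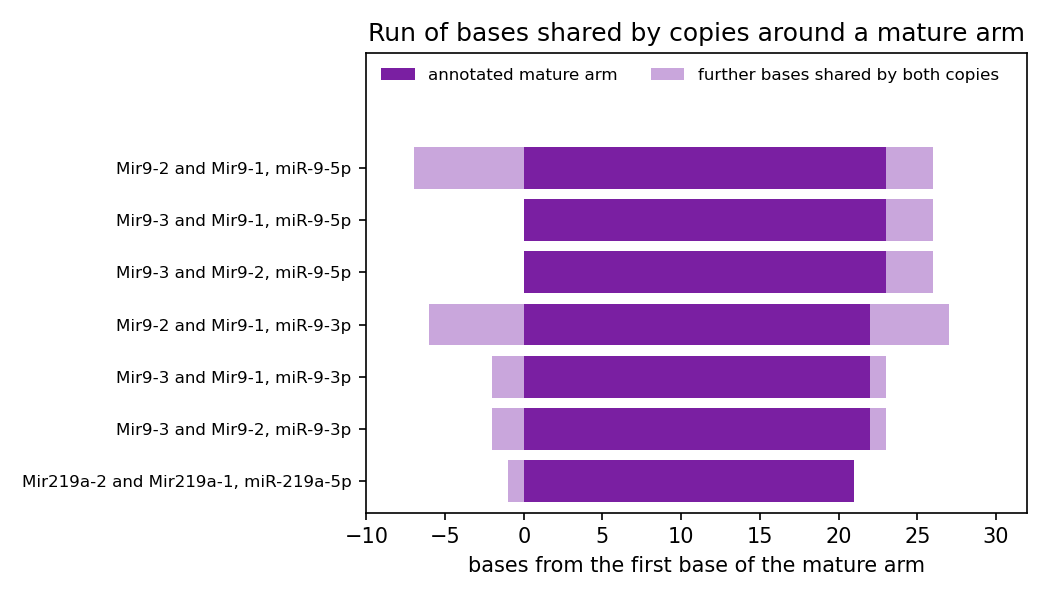
Run of bases that 2 copies have in common around a mature arm, counted from the first base of the arm; dark bars are the annotated arm and light bars the further shared bases. Mir9-2 and Mir9-1 share 33 bases around each arm, Mir9-3 shares 26 around miR-9-5p and 25 around miR-9-3p with either of them, and the miR-219a copies share 22.

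The loci of miR-9, the progenitor microRNA, were low: Mir9-3 was 1 of the least abundant detected members and Mir9-2 was close to 0. Mir9-3, in an intron of Mir9-3hg (chromosome 7, 79505264 to 79505353, plus strand), had 50 counts (25.8 CPM) in replicate 1 and 67 counts (28.9 CPM) in replicate 2, a mean of 27.3 ± 2.21 CPM at rank 285. Mir9-2, in an exon of the long non-coding C130071C03Rik (chromosome 13, 83738814 to 83738885, plus strand), had 1 and 2 counts, or 0.515 and 0.862 CPM. The 95% interval of Mir9-2 reached from 0.0130 to 2.87 CPM in replicate 1 and from 0.104 to 3.11 CPM in replicate 2.

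Of the counted miR-9 copies, Mir9-3 was the higher in both libraries. Mir9-3 had 50.0 times the counts of Mir9-2 in replicate 1 (95% counting interval 8.57 to 2014) and 33.5 times in replicate 2 (8.92 to 282). Exact mature reads of miR-9 match 3 hairpins, so the amount of miR-9 itself cannot be read from these loci. Whether the gap between the copies reflects their transcription or the placing of reads was not tested. The third copy, Mir9-1, which lies in an intron of Gm3764 on chromosome 3 (88215598 to 88215686, plus strand), has no row of its own, so no sense count is given for it.

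In order of mean level the members ran Mir137, Mir219a-2, Mir153, Mir219a-1, Mir132, Mir9-3, Mir212 and Mir9-2. Neighbours in this order were called apart when their log2 difference (0.5 counts added) had the same sign in both libraries and exceeded the change between pools of either locus. All 7 neighbouring pairs met that rule, and in all 7 the counting intervals did not overlap in either library. The closest pair was Mir219a-2 and Mir153, with log2 differences of 0.64 in replicate 1 and 0.46 in replicate 2. The widest step was from Mir212 to Mir9-2, with 3.70 and 3.10, and it rests on 1 and 2 counts of Mir9-2. With 2 libraries the smallest two-sided p that an exact test can give is 0.5, so none is given. Ligation and amplification also differ by sequence, which enters any level set beside that of another locus. Reads at several positions may be missing from the counts of Mir219a-1, Mir219a-2, Mir9-2 and Mir9-3. The order is thus one of counts at loci and not of mature microRNAs. The counts were not scaled by length, and read lengths at each locus were not analysed here.

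**Figure D3:**
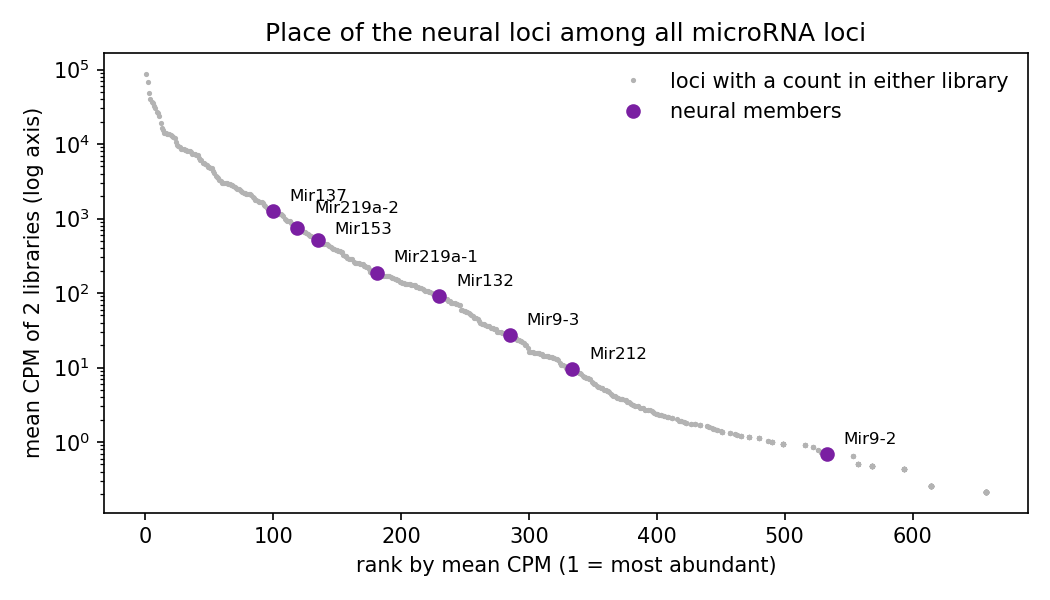
Mean CPM of the 2 libraries on a log axis against rank for the 708 loci counted at all (grey) and the 8 members (purple). The members are spread from rank 100 for Mir137 to rank 533 for Mir9-2.

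The loci nearest in level to the members, by distance in log2(CPM + 1) over the 2 libraries, came from other groups of microRNAs. Mir98, of the let-7 family, stood nearest to Mir137 at 1231 and 1071 CPM, a distance of 0.18. The nearest to Mir219a-2 was Mir676 (746 and 726 CPM), and the nearest to Mir153 was the hypoxia-induced Mir210 (569 and 528 CPM). Mir7b, at 182 and 183 CPM, was nearest to Mir219a-1, and Mir294, of the embryonic stem cell cluster, was nearest to Mir132 at 85.0 and 93.1 CPM. With 2 libraries this likeness is one of level only.

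How far the members' levels repeat was judged by the log2 ratio of replicate 1 over replicate 2. The 3 most abundant members were higher in replicate 1 beyond counting error. The ratio was 0.38 for Mir219a-2 (95% counting interval 0.28 to 0.48), 0.32 for Mir137 (0.24 to 0.40) and 0.21 for Mir153 (0.08 to 0.33). For Mir219a-1 it was -0.03 (-0.24 to 0.17) and for Mir132 -0.16 (-0.46 to 0.13), and both intervals include 0. Intervals also included 0 for Mir9-3 at -0.16 (-0.72 to 0.38) and Mir212 at 0.12 (-0.86 to 1.08), where counts are few.

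Read against all loci, these shifts were moderate. Of the 5 members that averaged 100 counts or more, 3 had an interval above 0 and 0 had one below it. Over the 257 loci past that minimum 26.8% lay above 0 and 30.0% below. No member differed by over 2-fold between the pools (0 of 5), as did 1.95% of the 257 loci. The median size of the log2 ratio was 0.21 for the 5 members and 0.14 for the 257 loci, and 28 of the 257, or 10.9%, had a ratio larger in size than that of Mir219a-2. The 2 copies of miR-219a moved differently, with Mir219a-2 at 1.30 times its replicate 2 level in replicate 1 and Mir219a-1 at 0.978 times.

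**Figure D4:**
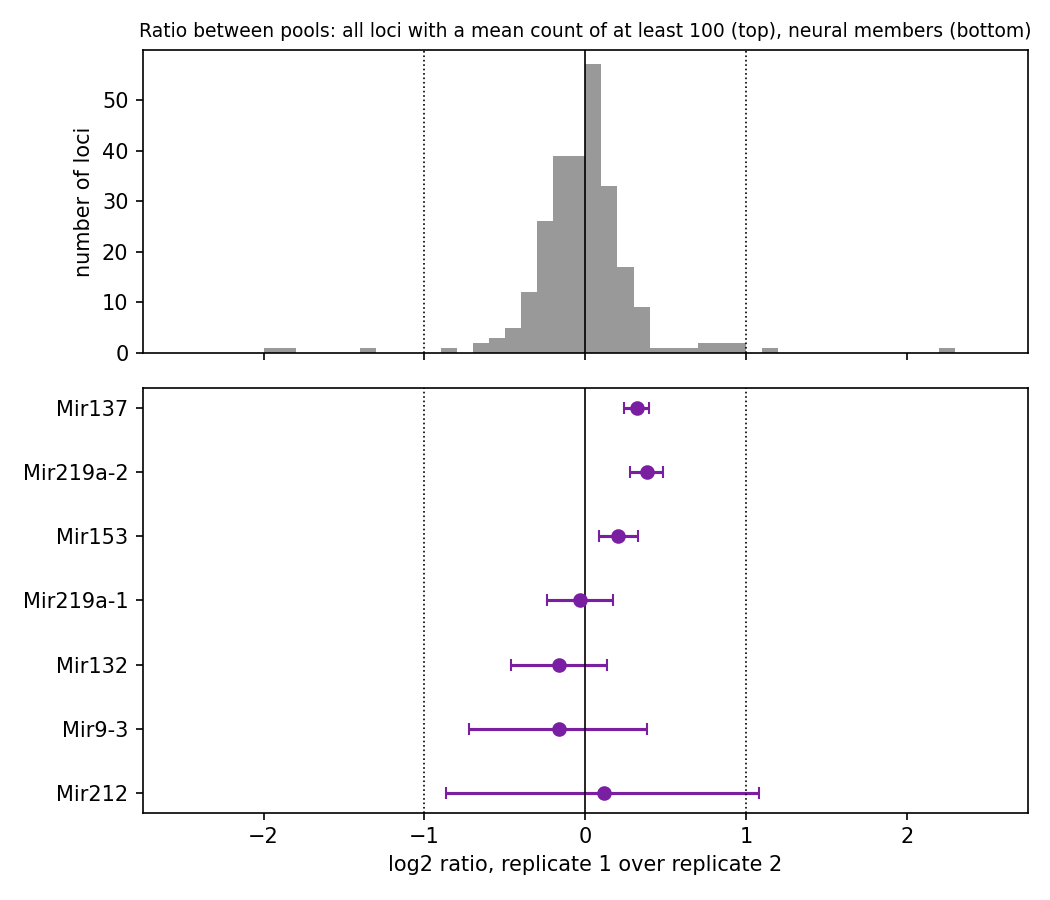
Top, number of loci by log2 ratio of replicate 1 over replicate 2, for the 257 loci that averaged 100 counts or more; bottom, the same ratio for the 7 members that averaged 10 counts or more, with 95% counting intervals. Dotted lines mark 2-fold; Mir137, Mir219a-2 and Mir153 lie to the right of 0 with intervals that exclude it.

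Markers of neighbouring tissues also differed between the pools. The eye loci Mir204, Mir211 and Mir184 summed to 0.207% of counts in replicate 1 and 0.0986% in replicate 2, and all 3 were higher in replicate 1. All 7 epithelial loci were higher in replicate 1 as well (3.31% and 2.95%). The heart-muscle loci Mir208a, Mir208b and Mir499 went the other way (0.0263% and 0.0941%), as did the erythroid Mir451a (218 and 547 CPM) and the hepatocyte locus Mir122 (31 and 102 counts). The other erythroid locus, Mir144, was nearly level at 46.4 and 45.7 CPM, and the 2 erythroid loci summed to 0.0264% and 0.0593%. Sums differed less for mesenchyme (5 loci, 5.10% and 5.45%), sensory cells (3 loci, 3.28% and 3.41%) and the endothelial Mir126a (3.90% and 4.04%). Mesenchymal and epithelial loci were present in both libraries, as the tissue label implies. The neuron list of 9 loci summed to 0.0433% and 0.0408%, with 5 loci at 10 counts or more in both libraries and Mir124a-3 at 0 in both. All 9 are numbered copies, so reads at several positions may be missing from this sum, which does not measure neuron content. The part of these tissues in the ratios of Mir137, Mir219a-2 and Mir153 was not tested.

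Other loci known from neural tissue, listed for comparison, covered a wide range of levels. Of 24 listed, 21 have a row in the tables, and 16 of those reached at least 10 counts in both libraries, against the 17.8% of all loci. Their median was 36.2 CPM. Mir92b, known from neural progenitors, led with 2039 CPM in replicate 1 and 2625 CPM in replicate 2. Mir135b followed with 2020 and 2076 CPM, and Mir134, a regulator of dendritic spines in the imprinted cluster of chromosome 12, had 1236 and 1272 CPM. These 3 loci, whose listed arms each had 1 site, stood at or above the level of Mir137 by their means of 2332 ± 414, 2048 ± 39.0 and 1254 ± 25.8 CPM. For Mir134 the difference from Mir137 was smaller than the spread of Mir137 between pools.

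The further loci of neurons were lower. Mir138-1 had 145 and 119 CPM and Mir128-1 had 124 and 118 CPM, both below Mir219a-1. Each of these 2 loci has an arm found at 2 hairpins, so reads at several positions may be missing from their counts, as from those of Mir219a-1. Mir338, which acts with miR-219 in oligodendrocyte maturation, had 172 and 155 counts, or 88.6 and 66.8 CPM. It lay close to Mir132 and was higher in replicate 1, with a log2 ratio of 0.41 (0.09 to 0.73). The miR-219a copies did not move alike, with Mir219a-2 at 0.38 (0.28 to 0.48) and Mir219a-1 at -0.03 (-0.24 to 0.17). Among the 9 further loci past the minimum of 100 counts on average, 2 had an interval above 0 (Mir138-1 and Mir338) and 1 below (Mir92b, at -0.36), set against 26.8% and 30.0% of all such loci.

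Below 10 counts in both libraries were the copies of miR-124, an abundant microRNA of neurons. Mir124a-2 had 9 and 7 counts, Mir124a-1 had 0 and 1, and Mir124a-3 had 0 in both libraries. By counting error alone, 0 counts allow up to 1.55 CPM (replicate 1) or 1.29 CPM (replicate 2). That limit does not cover reads with several positions, so the amount of miR-124 itself cannot be read from its numbered copies. Of the 17 further loci with a RefSeq mature sequence, 7 had 1 site for every arm.

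**Figure D5:**
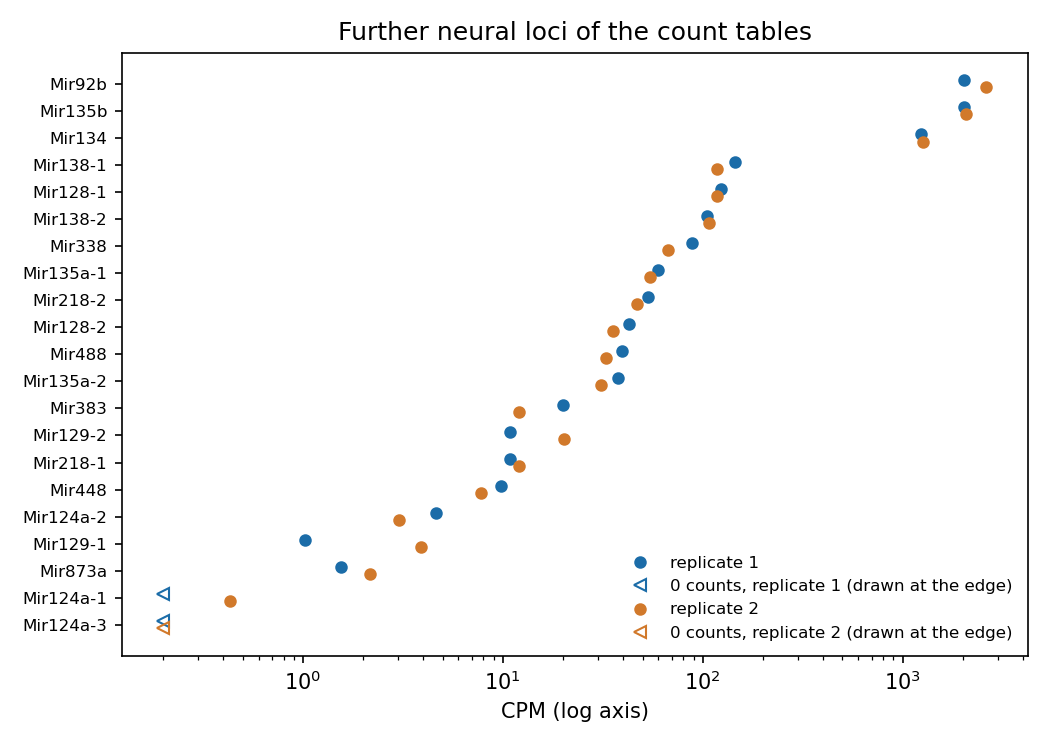
CPM on a log axis of the 21 further neural loci in replicate 1 and replicate 2; open triangles at the left edge mark 0 counts. Mir92b, Mir135b and Mir134 stand highest, with means of 2332, 2048 and 1254 CPM, and Mir124a-1 and Mir124a-3 are at the bottom.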

How the data were processed

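The authors' deposited tables hold raw counts per microRNA gene on mm10 with annotation M4, per the text beside each table; the aligner and the counter are not given in the sources used here. Sense counts were used. Lines without a gene did not enter library sizes: unmapped reads were 30.9% and 38.6%, reads at several positions 22.7% and 20.5%, and reads at no locus 5.51% and 6.75% of 4755968 and 6781929 reads in replicates 1 and 2. Sense counts at loci totalled 1941745 and 2319881, so that 1 count was 0.515 and 0.431 CPM.

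Positions (1-based) and symbols came from GENCODE M21, on the same GRCm38 assembly, which matched 1894 identifiers; the 79 others held 4 counts. RefSeq sequences (GRCm38.p6) cover 869 loci, and the planned match of mature sequences to the genome was made against these hairpins instead. Ratios had 0.5 counts added. Their 95% intervals (Clopper-Pearson) and the limit of 3 counts for a count of 0 cover counting error only, since no molecular identifiers are named. The labels call the pools biological replicates but give both the same donor entry. With 1 group there is no test between conditions.

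Named loci were the members, their copies and opposite-strand partners, the 5 most abundant further neural loci, the nearest locus in level to each member averaging 100 counts or more, and microRNA loci within 10 kb or in the same host; Mir338 and the miR-124 copies were named after their values were seen. Members, lists and rules were chosen with earlier results of these data known. The ratio step was tested on simulated data. Alternative library factors came from edgeR 4.0.16 and DESeq2 1.42.0 (R 4.3.3). Python 3.11.15 was used with pandas 2.3.3 and numpy 2.4.6, intervals came from scipy 1.17.1 and plots from matplotlib 3.10.9.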

Additional observations from a re-analysis of the deposited data

Results flagged for a closer look

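Counts on the strand opposite to a counted locus, which the report does not use, were above the limit of 3 counts at 2 places beside the neural loci. At Mir219a-1 there were 6 opposite-strand counts in replicate 1 and 7 in replicate 2 (3.09 and 3.02 CPM), on the strand where Mir219c is annotated (chromosome 17, 34025012 to 34025071). At Gm25641, a predicted microRNA locus on the minus strand of chromosome 3 with 0 sense counts in both libraries, there were 7 and 14 opposite-strand counts (3.61 and 6.03 CPM). That strand carries Mir9-1, which has no row of its own, so 4.82 ± 1.72 CPM (SD, n = 2) is the signal seen at its position. Both arms of miR-9 occur at 3 hairpins, so reads at several positions may be missing from this signal. The amount made by Mir9-1 cannot be read from it. It lay below Mir9-3 (25.8 and 28.9 CPM) and above Mir9-2 (0.515 and 0.862 CPM) in both libraries. At Mir219a-2, where Mir219b lies on the other strand, the opposite-strand counts were 1 and 2.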

How the results depend on the processing

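The summed share of the members was 0.107% per all reads of the library and 0.495% per total without the 10 most abundant loci, since both change the denominator. It was 0.274% with counts irrespective of strand, and 0.256% without replicate 1 and 0.308% without replicate 2. The number of further neural loci detected was 9 with at least 100 counts in both libraries and 19 with at least 1. The number of members detected was 5 and 8 under these minimums. The count of members past 2-fold stayed at 0 with TMM factors, DESeq2 size factors, minimum mean counts of 20 and 500 and no minimum. The minimum of 500 keeps only part of a set that already had 0, so it was no check. TMM factors were 1.0006 and 0.9994 and could hardly move a ratio. The 4 differences between paired loci kept their direction with counts irrespective of strand and without either replicate. Each already had the same sign in both libraries, so leaving out a replicate was no check of direction. All 7 neighbouring pairs stayed apart with counts irrespective of strand or 1 added count. Members had few opposite-strand counts, at most 7 (Mir219a-1 in replicate 2), so the strand setting could change little. All 40 alternative log2 ratios stayed within the counting interval, and 0 values reversed. Among alternative levels, all 8 with counts irrespective of strand stayed within 1 SD, and the 8 per all reads did not. Levels without 1 replicate lie within 1 SD by arithmetic when n = 2, so they were no check. The rule that no run of 20 bases is shared with another hairpin gave 4 members, the number obtained from the mature sequences; the rule of at least 1 arm at 1 site, added after seeing the data, gave 5. No paired analysis was possible because there is 1 group. Depth limits the values of loci with few counts, among the members Mir212 (19 and 21) and Mir9-2 (1 and 2); what part reads at several positions have in the low counts of Mir9-2 was not tested.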
